A study of Homo sapiens with 10 samples.

Results

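The 33 genes described here encode structural and synaptic parts of the photoreceptor: the rim and membrane of the outer segment discs, the axoneme and connecting cilium, the matrix around the outer segment, apical polarity and adhesion complexes, and the ribbon synapse. They were taken as a list of symbols and not picked by a cut on their values, but with earlier results of these data known. Of the 33, 32 were matched among the 57820 gene identifiers of the count files, and RBP3 was not analysed here. Of these 32, 29 passed the filter on low counts. FSCN2, CABP4 and CDH23, an actin bundler, a calcium-binding protein of the synapse and an adhesion cadherin, did not pass.

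RNA was sequenced from poly(A)-selected libraries of D425 and HD-MB03, established cell lines of Group 3 medulloblastoma, to ask what changes when the homeobox factor CRX, which drives photoreceptor and pineal genes, is knocked down with short hairpin RNA. The D425 shCRX group had 3 libraries of polyclonal cells with a doxycycline-inducible lentiviral hairpin against CRX, and its control group had 2 parental libraries and 1 library with the empty vector. HD-MB03 had 2 libraries labelled shCRX and 2 controls, 1 parental and 1 empty vector. Hairpin expression was induced with 4 µg/ml doxycycline over 72 h, and the treatment text of the labels is the same for every library, parental ones included. Which hairpin of the pair used each library carried is not given. Nothing in the labels states separate cultures within a group, and p-values therefore describe the spread among these samples, which can be technical.

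Photoreceptors build a modified cilium, the outer segment, in which stacked membrane discs are shaped by rim tetraspanins, carried on an axoneme and supplied through a connecting cilium with a gated transition zone. The outer segment lies in a matrix of proteoglycans, and the cell is held in place by Crumbs complexes and adhesion cadherins at its apical side. At the other end a synaptic ribbon holds vesicles beside a voltage-gated calcium channel. CRX binds homeodomain sites near many photoreceptor genes, and Group 3 medulloblastomas are known for expressing part of this program outside the retina.

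Between 1.96 and 18.1 M reads were counted in genes per library, so that 3 counts, taken as the floor, corresponded to 1.53 counts per M counted reads (CPM) in the shallowest library and 0.166 CPM in the deepest. CRX had 20.3, 20.9 and 25.3 CPM in D425 shCRX replicates 1 to 3, against 47.5, 29.7 and 64.9 CPM in D425 parental replicates 1 and 2 and the vector library. In HD-MB03 it had 27.7 and 23.5 CPM in the libraries labelled shCRX, against 12.5 and 12.3 CPM in the parental and vector libraries. The levels were thus lower in all D425 shCRX libraries and went against the label in HD-MB03. CRX fell by 1.10 on the log2 scale in D425 (edgeR quasi-likelihood test, adjusted p = 0.0436) and differed by 1.04 ± 0.36 in HD-MB03 (edgeR adjusted p = 0.174). In D425 the CRX call was lost without any 1 of 9 libraries, all but parental replicate 2, with log2 fold changes of -1.23 to -0.81.

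Library numbers in the file labels fell into a lower set, 20 to 62, and a higher set, from 110 up. The D425 shCRX and HD-MB03 control libraries were in the lower set, and the D425 control libraries and HD-MB03 libraries labelled shCRX in the higher one. Each arm of a line was thus in 1 set, and the shCRX effect within a line, as well as its difference between the lines, cannot be told apart from a difference between the sets. Depth followed the sets too, the lower set holding 1.96 to 9.53 M reads per library and the higher one 11.4 to 18.1 M. The mean of the lines and the comparison of the lines themselves cancel a difference between sets that is of equal size in both lines. The HD-MB03 controls were the shallowest libraries, and 30.9% and 26.4% of their reads did not align.

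Scaled to exon length, the level of these genes spanned several orders of magnitude. Averaged over both arms, IMPG2 was first in both lines, with 79.1 CPM per kilobase of exon in D425 and 171 in HD-MB03. It was followed in D425 by PLEKHB1 at 41.0, EGFLAM at 35.6, CDHR1 at 34.1 and TULP1 at 18.7 CPM per kilobase. PLEKHB1, EGFLAM and CDHR1 lay close together, and their spread over the D425 libraries overlapped. In HD-MB03 IMPG2 was followed by PROM1 at 26.6, CERKL at 17.3, CACNA1F at 13.0 and EGFLAM at 11.4 CPM per kilobase. A matrix proteoglycan was therefore the most abundant of these transcripts per length in each line, while the genes below it differed between the lines. At the bottom stood CABP4, a regulator of the presynaptic calcium channel, with 1 count over the D425 shCRX libraries, 1 count over the D425 controls and 0 in HD-MB03. FSCN2, the retinal actin bundler of disc formation, had 2 counts over the D425 shCRX libraries and 6 over the controls, and CDH23, a partner of PCDH15, had 16 and 17. In HD-MB03 FSCN2 had 0 counts over the libraries labelled shCRX and 2 over the controls, and CDH23 had 11 and 1.

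**Figure D1:**
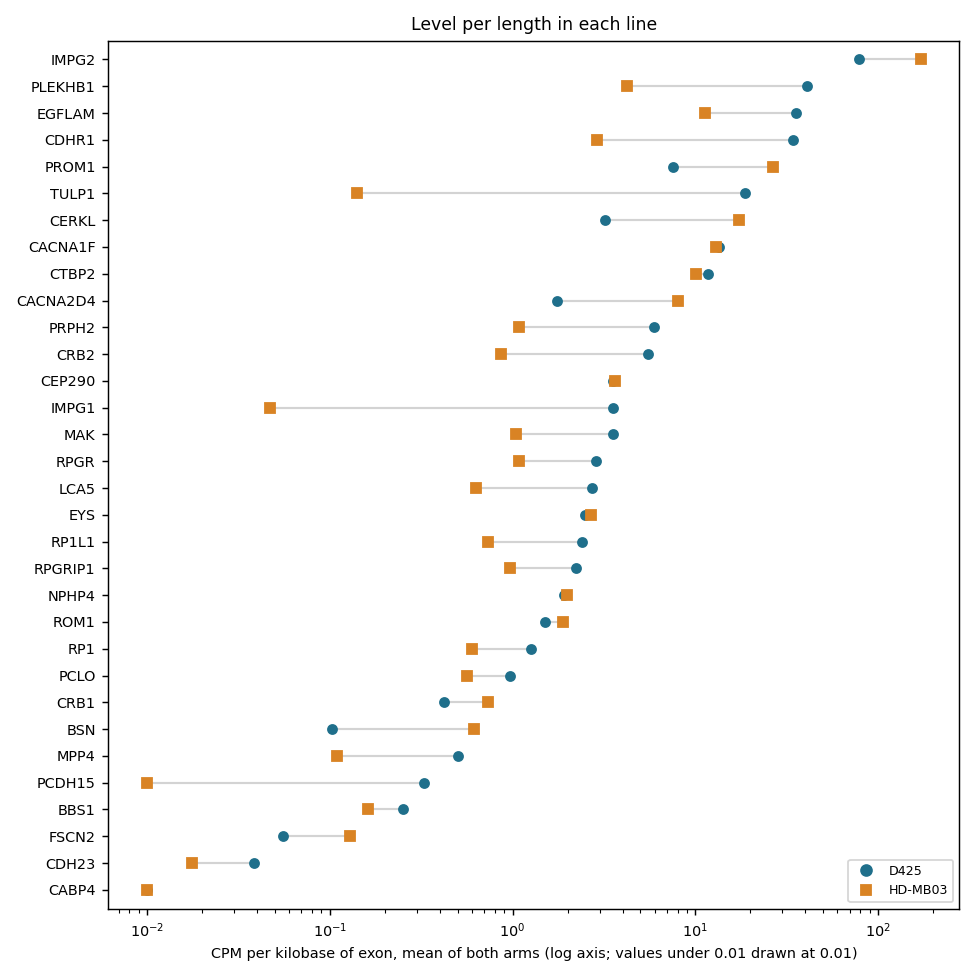
Level of the 32 matched genes in D425 (circles) and HD-MB03 (squares) as CPM per kilobase of exon, averaged over both arms, on a log axis, sorted by the higher of the lines. IMPG2 leads in both lines at 79.1 and 171 CPM per kilobase, and TULP1 and IMPG1 show the widest gaps between the lines.

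In D425, 6 of the 29 tested genes were lower in shCRX libraries and 0 were higher. Of all 16006 genes tested, 2.97% were called, 1.37% lower and 1.61% higher. The 6 came from 5 roles: PROM1 of the disc membrane, RP1L1 and MAK of the axoneme, IMPG2 of the matrix, CRB1 of the polarity complex and EGFLAM of the ribbon synapse. The median log2 fold change of the 29 was -0.35, beside 0.02 over all genes tested, with 21 negative and 8 positive. Fold changes are on the log2 scale with their standard error (SE). In the CPM of single libraries, 10 of the 29 were lower in every shCRX library than in every control, against 11.5% of all genes, and 2 were higher in every one, again against 11.5% (23.0% in either direction). Since the RNA is from bulk cultures, fewer cells of a kind and less RNA per cell cannot be told apart.

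Among the axonemal genes, RP1L1, a microtubule-associated doublecortin protein and paralogue of RP1, had 3.32, 10.1 and 6.39 CPM in D425 shCRX replicates 1 to 3, against 50.4, 20.5 and 36.5 CPM in parental replicates 1 and 2 and the vector library. Every shCRX library was below every control, and parental replicate 2 was the lowest control. RP1L1 fell by 2.48 (log2, SE 0.46, edgeR adjusted p = 0.0144). MAK, a kinase that limits the length of the photoreceptor cilium, had 9.32, 6.20 and 7.67 CPM in shCRX libraries, against 23.3, 16.8 and 26.4 CPM in controls, again with no overlap, and fell by 1.501 (SE 0.28, edgeR adjusted p = 0.0151). RP1 itself, which aligns discs along the axoneme, had 13.5, 22.3 and 18.2 CPM in shCRX libraries, against 24.4, 20.9 and 16.3 CPM in controls. Its arms overlapped, so that the paralogues RP1 and RP1L1 did not share a call.

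The other axonemal and ciliary genes had overlapping arms in D425, except RPGR. TULP1, a tubby-like protein needed to carry cargo to the outer segment, had 43.1, 8.89 and 67.3 CPM in shCRX libraries, against 76.7, 42.6 and 92.8 CPM in controls, and its value in shCRX replicate 2 was far below those of replicates 1 and 3. RPGR, the guanosine-triphosphatase regulator of the connecting cilium, had 19.8, 24.6 and 18.2 CPM in shCRX libraries, against 27.9, 27.5 and 25.99 CPM in controls. RPGRIP1, which tethers RPGR there, had 8.03, 23.8 and 18.2 CPM in shCRX libraries, against 5.49, 9.44 and 8.09 CPM in controls. RPGR was lower in every shCRX library than in every control, RPGRIP1 overlapped, and neither passed the test, with edgeR adjusted p of 0.589 for RPGR and 0.166 for RPGRIP1. LCA5, the ciliary transport protein lebercilin, had 22.98, 5.38 and 14.3 CPM in shCRX libraries, against 16.1, 9.76 and 29.2 CPM in controls. The transition-zone genes CEP290 and NPHP4 and BBS1, a subunit of the BBSome coat, had log2 fold changes of -0.25, 0.31 and 0.05 without a call, and 53.9% of the exon bases of BBS1 are shared with same-strand neighbours, so that its counts are uncertain.

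In the matrix group, IMPG2, a proteoglycan that anchors the matrix to the photoreceptor membrane, had 354, 456 and 559.6 CPM in D425 shCRX libraries, against 994, 749 and 846 CPM in controls. The highest shCRX library was below the lowest control, and IMPG2 fell by 0.92 (SE 0.21, edgeR adjusted p = 0.0387). Its soluble relative IMPG1 had 7.38, 1.86 and 6.65 CPM in shCRX libraries, against 21.2, 3.63 and 40.5 CPM in controls. The control values of IMPG1 spread widely and overlapped with those of shCRX, and the log2 fold change of -2.01 did not pass (edgeR adjusted p = 0.183). EYS, a secreted protein of the outer segment surface, had 28.4, 20.1 and 33.5 CPM in shCRX libraries, against 65.2, 37.1 and 69.4 CPM in controls, with no overlap and a log2 fold change of -1.07 ± 0.29 (SE) that missed the threshold (edgeR adjusted p = 0.0664).

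In the disc group, PROM1, a membrane protein of nascent discs also known as CD133, had 50.1, 31.02 and 36.3 CPM in D425 shCRX libraries, against 62.3, 89.9 and 67.2 CPM in controls. The arms did not overlap, and PROM1 fell by 0.89 (SE 0.22, edgeR adjusted p = 0.0473). CDHR1, a cadherin at the edge of newly formed discs that binds PROM1, had 134, 279.8 and 231 CPM in shCRX libraries, against 304, 324 and 288 CPM in controls. Here shCRX replicate 1 stood below the other two shCRX libraries, which came close to the controls, and the log2 fold change of -0.51 was not called. PRPH2, the tetraspanin of the disc rim, had 6.37, 3.72 and 17.6 CPM in shCRX libraries, against 36.2, 11.7 and 29.99 CPM in controls, so that the arms overlapped. Its partner ROM1 had 2.86 to 5.38 CPM in shCRX libraries and 2.34 to 4.64 CPM in controls.

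CRB1, a Crumbs protein of the outer limiting membrane of the retina, had 1.29, 0.414 and 2.56 CPM in D425 shCRX libraries, against 12.7, 7.83 and 7.54 CPM in controls. All shCRX libraries were below all controls, and CRB1 had 26 counts over the shCRX libraries and 407 over the controls. It fell by 2.77 (SE 0.54, edgeR adjusted p = 0.0175). Its paralogue CRB2 had 22.1, 23.2 and 48.1 CPM in shCRX libraries, against 43.2, 27.5 and 46.99 CPM in controls, with overlap and no call (log2 fold change -0.35, edgeR adjusted p = 0.627). MPP4, a membrane-associated guanylate kinase of the photoreceptor terminal, had 2.03, 7.44 and 2.05 CPM in shCRX libraries, against 0.784, 0.646 and 1.91 CPM in controls. Every shCRX library was above every control, replicates 1 and 3 only narrowly and at levels near the floor, and MPP4 was not called. PCDH15, a cadherin mutated in Usher syndrome, had 2.12, 5.17 and 3.33 CPM in shCRX libraries, against 8.06, 4.52 and 6.998 CPM in controls.

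At the synapse, EGFLAM, also called pikachurin, which links dystroglycan to the postsynaptic side of the ribbon synapse, had 137, 142 and 167 CPM in D425 shCRX libraries, against 275, 235 and 266 CPM in controls. The arms stood well apart, and EGFLAM fell by 0.80 (SE 0.19, edgeR adjusted p = 0.0388). The calcium channel genes did not follow: CACNA1F, its pore, had 80.9 to 125 CPM in shCRX libraries and 39.02 to 149 CPM in controls, and CACNA2D4, an auxiliary subunit, had 12.8, 7.03 and 20.2 CPM in shCRX libraries, against 10.97, 15.4 and 13.8 CPM in controls. BSN, a scaffold of the active zone, had 1.75, 2.27 and 0.256 CPM in shCRX libraries, against 1.34, 3.47 and 0.909 CPM in controls. PCLO, a related scaffold, had 37.3, 20.7 and 10.999 CPM in shCRX libraries, against 20.4, 16.5 and 27.1 CPM in controls, and both overlapped. CTBP2, whose internal promoter gives the ribbon protein RIBEYE, had 110.0 to 133 CPM in shCRX libraries and 130.5 to 152 CPM in controls. Gene counts do not separate RIBEYE from the ubiquitous co-repressor, and 34.7% of the exon bases of CTBP2 overlap genes on the other strand.

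Outside these roles, PLEKHB1, a membrane-associated pleckstrin-homology protein of photoreceptors, had 213, 235 and 260.4 CPM in D425 shCRX libraries, against 188, 152 and 164 CPM in controls. It was higher in every shCRX library, with a log2 fold change of 0.49 ± 0.17 (SE) that was not called (edgeR adjusted p = 0.152). CERKL, a ceramide kinase-like protein mutated in retinal degeneration, had 10.5, 10.8 and 13.3 CPM in shCRX libraries, against 21.5, 20.7 and 14.5 CPM in controls, lower in every shCRX library and not called (log2 fold change -0.72 ± 0.27 (SE), edgeR adjusted p = 0.182).

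The D425 calls depended on the controls and on single libraries. With the vector library alone as control 0 of the 29 were called, with the parental libraries alone 1 (CRB1), with library totals as the scaling 3 (CRB1, MAK and RP1L1), with trends of GC content and gene length removed 4 (without IMPG2 and PROM1), and with all libraries thinned to the depth of the shallowest 0. The count of 6 was 1 without parental replicate 1, 7 without parental replicate 2 and 2 without the vector library. It was 4 (3 lower, and RPGRIP1 higher) without shCRX replicate 1, 3 without replicate 2 and 2 without replicate 3, and 4 without any 1 of the HD-MB03 libraries, which enter through the shared estimate of the spread. Among the omissions of 1 library, RP1L1 lost its call only without shCRX replicate 3, at a log2 fold change of -2.52. MAK lost it without parental replicate 1 (-1.46), the vector library (-1.36) or shCRX replicate 3 (-1.51), and CRB1 without parental replicate 1 (-2.48) or shCRX replicate 1 (-2.74). IMPG2, EGFLAM and PROM1 were lost more often. IMPG2 was lost without D425 parental replicate 1 (-0.80), the D425 vector library (-0.93), shCRX replicates 1 (-0.78) or 2 (-0.94), or either HD-MB03 control (-0.93). EGFLAM was lost without D425 parental replicate 1 (-0.75), the D425 vector library (-0.78), any shCRX library of D425 (-0.91 to -0.76) or either HD-MB03 library labelled shCRX (-0.81 and -0.80). PROM1 was lost without any 1 library except D425 shCRX replicate 1, at -0.995 to -0.75. Without parental replicate 2, EYS (-1.34) and IMPG1 were called in addition. The fold changes of the 6 called genes and EYS stayed negative under all alternatives tried.

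Single genes of other marker lists moved with the same D425 libraries. The summed level of 7 fibroblast markers was 51.9 to 85.3 CPM in shCRX libraries and 25.9 to 37.6 CPM in controls, and PDGFRB, which held most of the sum, rose by 1.199 (edgeR adjusted p = 0.0350). Without PDGFRB the sums overlapped, at 11.3 to 16.6 CPM in shCRX libraries and 6.09 to 13.0 CPM in controls. Of the other markers, COL1A1 was higher in every shCRX library than in every control, at 7.86 to 9.41 CPM against 2.09 to 5.65 CPM. DCN was lower in every shCRX library than in every control, and neither COL1A1 nor DCN was called. Photoreceptor identity markers, 10 of 11 matched, summed to 2004 to 2642 CPM in shCRX libraries and 2984 to 3099 CPM in controls. Most of this sum was OTX2, at 1576 to 1994 CPM in shCRX libraries and 2382 to 2566 CPM in controls. Without OTX2 the sums overlapped, at 428 to 648 CPM in shCRX libraries and 418 to 630.3 CPM in controls. Most of that rest was AIPL1, at 363 to 558 CPM in shCRX libraries and 358 to 474 CPM in controls. CRX and RCVRN were lower in every shCRX library than in every control, RCVRN narrowly (12.79 against 12.83 CPM at the closest). PDE6B was higher in every one, at 0.738 to 2.05 CPM against 0.0909 to 0.448 CPM. Of the photoreceptor identity markers only CRX was called. Among all genes tested, 23.0% did not overlap between the D425 arms, in either direction. Group 3 markers, 7 genes that include IMPG2 and OTX2, summed to 3108 to 4746 CPM in shCRX libraries and 5778 to 6447 CPM in controls, and GABRA5 among them fell by 1.85 (edgeR adjusted p = 0.00545). Most of this sum was OTX2 and MYC, the latter at 968 to 1981 CPM in shCRX libraries and 2031 to 2974.5 CPM in controls. Neither was called. MAB21L2 overlapped between the arms, and NPR3 and EOMES had at most 1.61 CPM in any D425 library. Of 6 Muller glia markers, whose summed levels were 523 to 601 CPM in shCRX libraries and 527 to 707 CPM in controls, SLC1A3 fell by 1.497 (edgeR adjusted p = 0.0144). The 4 tested ones were split, with 2 positive and 2 negative log2 fold changes and a median of 0.0016. GFAP was low but higher in every shCRX library, at 1.28 to 1.65 CPM against 0.9998 to 1.06 CPM, and was not called. Leaving out 1 library ended the call of SLC1A3 (-1.31 without the D425 vector library) and that of PDGFRB (0.88 to 1.38 without any D425 library other than shCRX replicate 2, and 1.19 without either HD-MB03 control). Of bipolar, pigment epithelium and multiciliated cell markers, 0 were called in D425. The part of any of these in the results above was not tested.

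The core letters of the CRX site, TAATCC on one strand and GGATTA on the other, were looked for in the RefSeq promoter windows of these genes on build GRCh38.p14, 250 bases before to 50 bases after each annotated start. The windows are of another build than the authors' GRCh37 counts and were joined by symbol. RP1, RP1L1 and CACNA2D4 were without a window. Of 46 windows of the other 29 genes, the 3 low ones included, 11 held the letters (23.9%), and 8 of the 29 genes had them in at least 1 window, against 2234 of 35116 windows of all genes (6.36%) and 7.81% of the 27305 genes with a window. Of the 9 windows of 5 genes called lower in D425, 2 held them, 1 of CRB1 and 1 of an alternative start of PROM1. The match is a description of letters, and its absence from a window says nothing about the factor. RPGRIP1 had further matches in windows of other starts, 192 and 125 bases before them, and CTBP2 had another, 33 bases before. These are not shown. A stretch of 30 bases around 1 match is shown for each of the 8 genes, 5′ to 3′ on the gene's strand with the motif in capitals.
CRB1: gttatcagaaatTAATCCctctattgagag
PROM1: acccacccatccGGATTAggctggaggcct
EYS: agaagctttattGGATTAggcttctgagaa
RPGRIP1: ctaaacagaactGGATTAgctcctctttta
MPP4: ttaggcatctgtGGATTAcatcaaagagga
PCDH15: aatctatcctttTAATCCaccctcctcccc
CACNA1F: gccctgcggcctTAATCCctccaaagctgg
CTBP2: tcgcggagccacTAATCCcccgagagagcc
The stretches lie at chr1:197268035-197268064 (CRB1, plus strand, the motif's first base 205 bases before the start), chr4:16076213-16076242 (PROM1, minus strand, the motif's first base 112 bases before the start), chr6:65707222-65707251 (EYS, minus strand, the motif's first base 13 bases before the start), chr14:21280029-21280058 (RPGRIP1, plus strand, the motif's first base 42 bases before the start), chr2:201698701-201698730 (MPP4, minus strand, the motif's first base 74 bases before the start), chr10:55628025-55628054 (PCDH15, minus strand, the motif's first base 100 bases before the start), chrX:49233360-49233389 (CACNA1F, minus strand, the motif's first base 37 bases before the start) and chr10:125161166-125161195 (CTBP2, minus strand, 153 bases before the start).

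For 4 genes the whole 250 bases before the start are given, as examples with and without the letters: CRB1, which was called in D425 and has them, MAK and IMPG2, which were called without them, and EYS, which was not called and has them beside its start. Motif letters are in capitals, on the gene's strand and 5′ to 3′.
CRB1: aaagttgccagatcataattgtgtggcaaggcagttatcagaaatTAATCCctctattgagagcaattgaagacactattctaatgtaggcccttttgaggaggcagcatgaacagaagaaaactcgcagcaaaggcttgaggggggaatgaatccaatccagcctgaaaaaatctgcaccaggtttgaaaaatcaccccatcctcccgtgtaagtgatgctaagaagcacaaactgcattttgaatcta
MAK: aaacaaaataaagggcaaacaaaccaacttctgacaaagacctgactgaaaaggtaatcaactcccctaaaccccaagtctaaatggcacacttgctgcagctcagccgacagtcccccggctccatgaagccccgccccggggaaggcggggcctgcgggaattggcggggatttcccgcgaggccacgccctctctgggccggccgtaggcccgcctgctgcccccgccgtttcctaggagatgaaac
IMPG2: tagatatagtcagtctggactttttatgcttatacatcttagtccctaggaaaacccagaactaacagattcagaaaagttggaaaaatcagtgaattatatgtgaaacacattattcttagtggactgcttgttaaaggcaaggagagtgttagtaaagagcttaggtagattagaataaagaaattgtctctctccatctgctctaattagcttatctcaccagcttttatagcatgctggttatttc
EYS: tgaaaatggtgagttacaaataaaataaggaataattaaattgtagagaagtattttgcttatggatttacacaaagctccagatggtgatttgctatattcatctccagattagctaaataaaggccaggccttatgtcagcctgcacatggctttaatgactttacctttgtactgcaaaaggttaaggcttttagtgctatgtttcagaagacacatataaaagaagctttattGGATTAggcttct
They lie at chr1:197268002-197268251 (CRB1, plus strand), chr6:10838540-10838789 (MAK, minus strand), chr3:101320576-101320825 (IMPG2, minus strand) and chr6:65707227-65707476 (EYS, minus strand).
CACNA1F, CTBP2 and PCDH15, which were not called in D425, were among the genes that hold the letters. In 31 of the 46 windows the first transcribed bases were found in a GENCODE transcript.

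In HD-MB03, the libraries labelled shCRX did not have less CRX than the controls, so directions in this line follow the label and not the level of CRX. Whether the labels of the arms were exchanged was not tested. With the arms exchanged, every HD-MB03 fold change would have the opposite sign, and the tests of the difference between the lines and of their mean would trade places. Of the 29 tested genes, 1 was higher and 0 were lower. Of all genes tested, 1.51% were called, 0.262% higher and 1.24% lower. That gene was CERKL, with 159 and 90.02 CPM in the libraries labelled shCRX, against 32.3 and 48.8 CPM in the parental and vector libraries. It rose by 1.62 ± 0.33 (log2, SE, edgeR adjusted p = 0.0319). The median over the 29 was 0.23, beside 0.10 over all genes, and was the same over the 27 without IMPG1 and PCDH15, which had 0 counts in a group. By CPM, 12 of the 29 were higher in both libraries labelled shCRX than in both controls and 5 were lower, against 30.5% and 21.8% of all genes (52.3% in either direction).

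Of the 6 genes called lower in D425, RP1L1, MAK and IMPG2 had higher values in both HD-MB03 libraries labelled shCRX than in both controls. RP1L1 had 10.2 and 9.52 CPM in the libraries labelled shCRX, against 5.20 and 1.07 CPM in the parental and vector libraries of HD-MB03. These controls rest on 12 counts in all, and the 2 counts of the vector library were below the floor of 3. MAK had 7.43 and 5.87 CPM, against 1.56 and 2.68 CPM in the HD-MB03 controls, which rest on 8 counts in all. IMPG2 had 1959 and 1434 CPM, against 1218 and 1098 CPM in the controls. All 3 were without overlap and none was called, with edgeR adjusted p of 0.260 for RP1L1, 0.116 for MAK and 0.301 for IMPG2. EYS had 70.1 and 45.2 CPM in the libraries labelled shCRX, against 27.6 and 39.7 CPM in controls, and CDHR1 had 32.6 and 29.7 CPM, against 12.5 and 13.4 CPM in controls. CRB1 had 14.2 and 8.52 CPM, against 3.64 and 11.3 CPM in controls, PROM1 202 and 187 CPM, against 222 and 179 CPM, and EGFLAM 69.8 and 59.5 CPM, against 77.6 and 53.1 CPM. These 3 overlapped, so that EGFLAM and PROM1, lower in D425, differed by less than the spread of the HD-MB03 libraries, with log2 fold changes of -0.01 ± 0.24 and -0.04 ± 0.26 (SE).

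Lower values were seen for PLEKHB1, with 15.9 and 13.96 CPM in the HD-MB03 libraries labelled shCRX, against 29.1 and 24.7 CPM in controls. RPGRIP1 had 2.36 and 3.51 CPM, against 5.73 and 9.65 CPM in controls, and RPGR 10.3 and 8.95 CPM, against 3.12 and 13.9 CPM. RPGRIP1 was lower in both libraries labelled shCRX than in both controls, RPGR overlapped, and neither was called. PRPH2 had 6.22 and 3.51 CPM in the libraries labelled shCRX, against 2.60 and 0.536 CPM in controls, and LCA5 7.72 and 5.23 CPM, against 0.520 and 1.61 CPM. The controls of both were at or near the floor of these shallow libraries. RP1 had 8.72 and 6.73 CPM, against 12.5 and 8.58 CPM in controls, CACNA2D4 72.1 and 52.9 CPM, against 49.4 and 70.8 CPM, and BSN 9.36 and 7.66 CPM, against 4.68 and 18.2 CPM. CRB2 had 6.22 and 4.58 CPM in the libraries labelled shCRX, against 4.68 and 6.43 CPM in controls, and PCLO 13.7 and 12.2 CPM, against 11.5 and 14.5 CPM. These 5 overlapped between the arms. Of the remaining genes, ROM1 and NPHP4 were lower and CACNA1F and CTBP2 higher in both libraries labelled shCRX than in both controls, and CEP290 overlapped. None of these 5 was called, with log2 fold changes of -0.30 to 0.59. TULP1 had 0.715 and 0.430 CPM in the libraries labelled shCRX, against 0.520 and 0 CPM in controls, and IMPG1 0.357 and 0.358 CPM, against 0 and 0 CPM. MPP4 had 0.357 and 0.215 CPM in the libraries labelled shCRX, against 0.520 and 1.07 CPM in controls, and PCDH15 0 and 0 CPM, against 0.520 and 0 CPM. BBS1 had 1 and 2 counts in the parental and vector libraries. These 5 were too low to compare the arms.

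The call of CERKL was lost in the limma-voom test (log2 fold change 1.59, limma adjusted p = 0.0667). It was also lost without D425 shCRX replicate 3 (1.59), HD-MB03 parental replicate 1 (1.37), HD-MB03 shCRX replicate 1 (1.16) or 2 (1.98), or the vector library of HD-MB03 (1.97), which brought the count to 0. The same held with vector (1.35) or parental (1.95) libraries alone as controls, after thinning (1.24) and after removal of GC and length trends (1.34). Without D425 shCRX replicate 1 the count was 2, CDHR1 (1.27) being the other gene. CERKL shares 4.95% of its exon bases with NEUROD1 on the same strand, and NEUROD1 averaged 1193 ± 144 CPM in the HD-MB03 libraries labelled shCRX and 905 ± 225 CPM in controls (SD, n = 2 each), without a call.

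**Figure D2:**
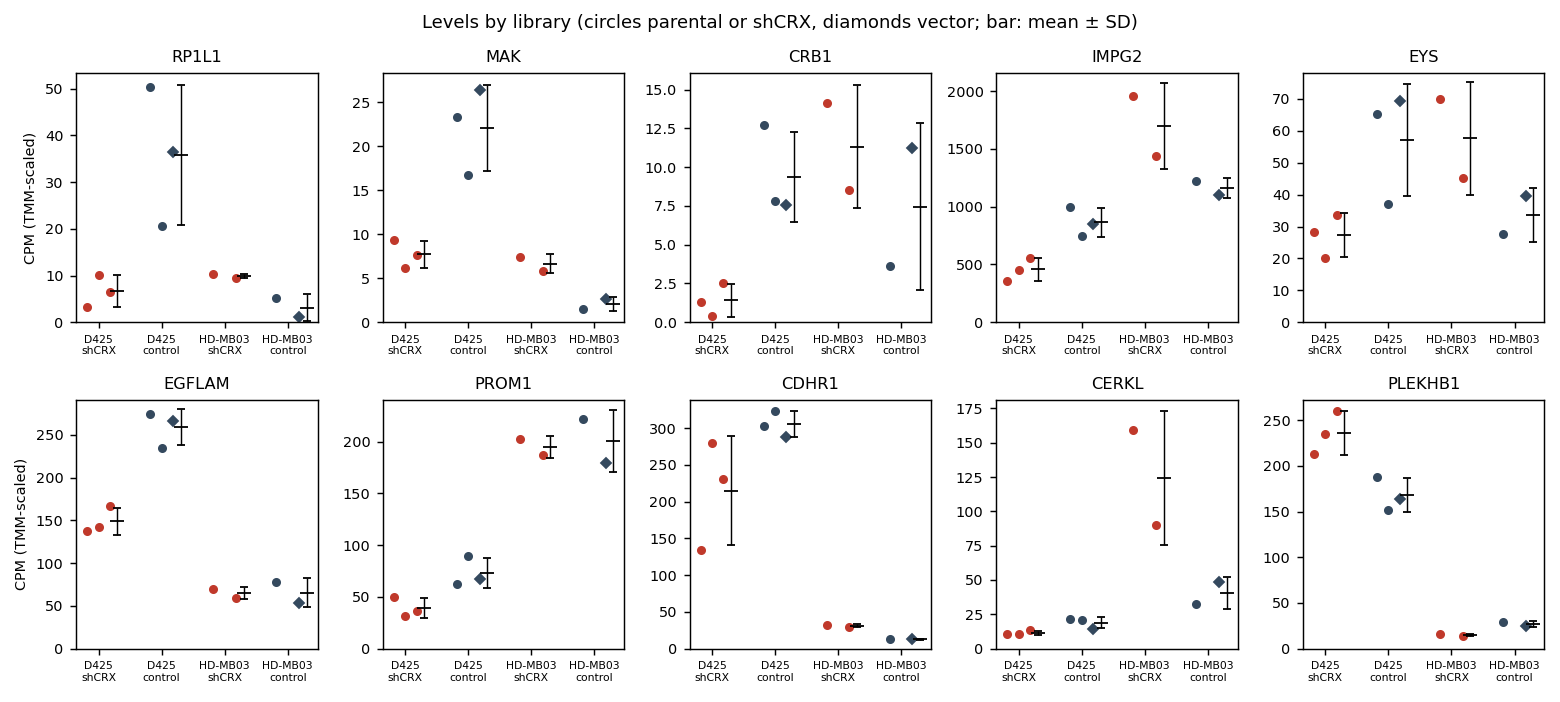
CPM of 10 genes in each library, with shCRX left of control in each line, circles for parental or shCRX and diamonds for vector libraries, and a bar for mean ± SD. RP1L1, MAK, CRB1, IMPG2, EGFLAM and PROM1 lie lower in all D425 shCRX libraries than in all D425 controls, and CERKL lies higher in the HD-MB03 libraries labelled shCRX.

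The difference of the shCRX effects, D425 minus HD-MB03, passed for 8 of the 29 genes, 7 lower and 1 higher. Of all genes tested, 4.16% were called, 1.49% lower and 2.67% higher. It was -4.12 for RP1L1, -3.38 for CRB1, -3.15 for MAK, -2.34 for CERKL, -1.85 for EYS, -1.78 for CDHR1 and -1.47 for IMPG2, and 1.34 for PLEKHB1. The SE of these differences lay between 0.29 and 0.82, and the edgeR adjusted p between 0.00971 and 0.0436. CRX itself differed by -2.14 (edgeR adjusted p = 0.0199) in the same direction as the 7. The median over the 29 was -0.56, beside -0.12 over all genes. Negative in D425 and positive in HD-MB03 were 15 of the 29, against 29.9% of all genes, and the opposite 6, against 25.1%, fitted signs of IMPG1 and PCDH15 included.

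Leaving out HD-MB03 parental replicate 1 or shCRX replicate 1 turned the count of 8 to 1, and with the vector libraries alone as controls it was 0. With the parental libraries alone it was 2, after thinning 1 and after removal of GC and length trends 4. It was 4 without D425 parental replicate 1 or the vector library of D425, 5 without D425 shCRX replicate 3, 5 without the vector library of HD-MB03 (CEP290 among them in addition), 6 without HD-MB03 shCRX replicate 2 and 7 without D425 shCRX replicate 2. Without D425 shCRX replicate 1 it was 8, with RPGRIP1 in and CRB1 out. The value of RP1L1 rests on 12 counts in the HD-MB03 controls and was -1.36 after thinning and -5.70 without HD-MB03 parental replicate 1. RP1L1 was lost without HD-MB03 shCRX replicate 1 (-4.08) or the vector library of that line (-3.44), MAK without HD-MB03 parental replicate 1 (-2.83) and CERKL without HD-MB03 parental replicate 1 (-2.10) or shCRX replicate 1 (-1.89). The other 5 were each lost without HD-MB03 parental replicate 1 and without HD-MB03 shCRX replicate 1. CRB1, EYS, CDHR1 and IMPG2 were also lost without D425 parental replicate 1 or the D425 vector library, and EYS, CDHR1 and IMPG2 without the vector library of HD-MB03. Leaving out HD-MB03 shCRX replicate 2 ended the calls of CDHR1 and PLEKHB1. Without D425 shCRX replicate 1 it was CRB1, without replicate 2 EYS, and without replicate 3 EYS, CDHR1 and PLEKHB1. The values under these omissions were -3.50 to -2.81 for CRB1, -2.17 to -1.51 for EYS, -1.86 to -1.72 for CDHR1, -1.58 to -1.24 for IMPG2 and 1.18 to 1.42 for PLEKHB1. As stated for the library numbers, this difference cannot be told apart from one between the sets.

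**Figure D3:**
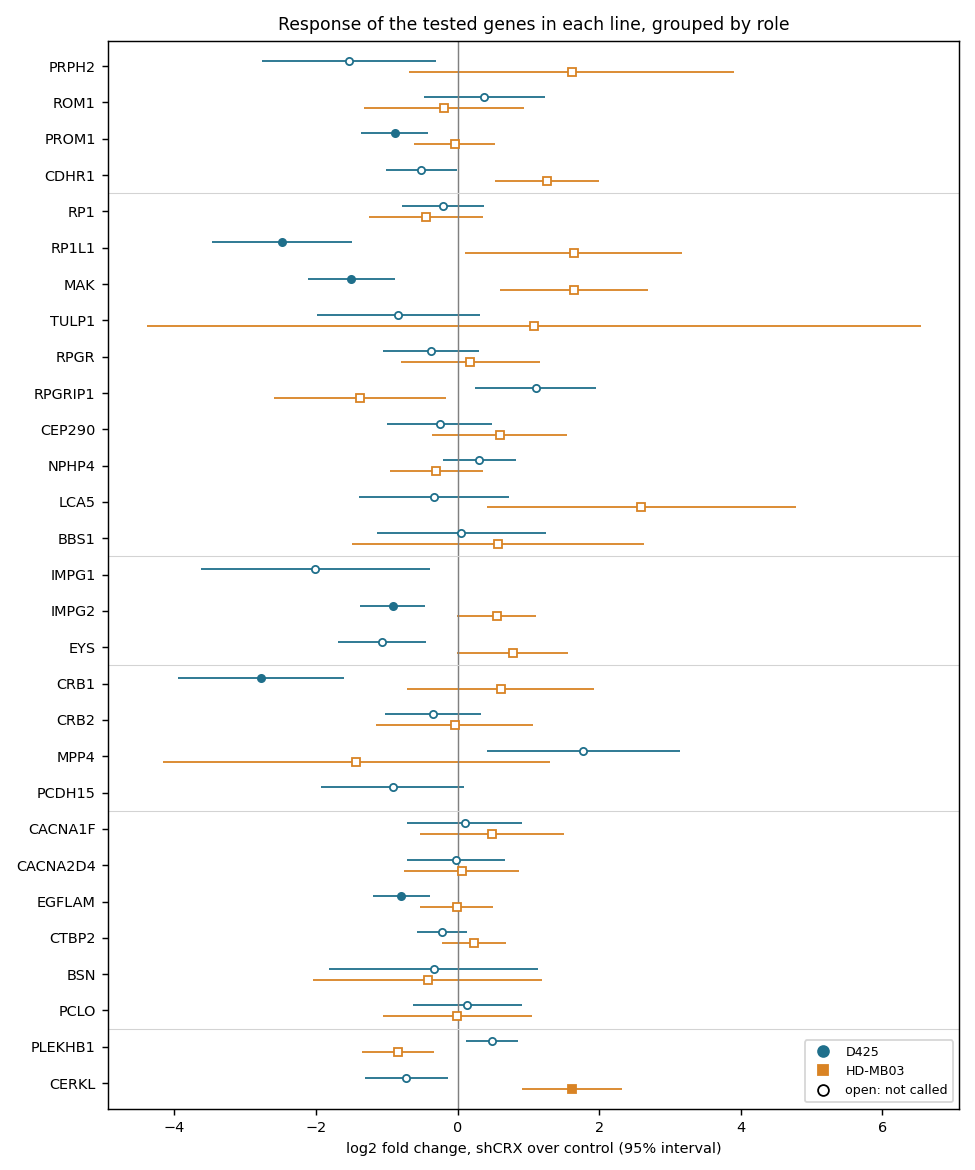
Log2 fold change of the 29 tested genes, shCRX over control, with 95% intervals in D425 (circles) and HD-MB03 (squares, left out for IMPG1 and PCDH15), grouped by role, filled where called. RP1L1 at -2.48, MAK at -1.501 and CRB1 at -2.77 are the filled D425 points farthest from 0, and CERKL at 1.62 is the filled HD-MB03 point.

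In the mean of the lines, in which a set difference of equal size cancels, 0 of the 29 genes were called by edgeR. Of all genes tested, 0.225% were called, 0.206% lower and 0.0187% higher. At an unadjusted p under 0.05 there were 4 of the 29, namely CRB1, EGFLAM, PROM1 and PCDH15, against 13.2% of all genes, a share near that of the 29. DESeq2 and limma-voom each called 0 as well. The log2 fold changes in this mean were -1.08 ± 0.41 for CRB1, -0.47 ± 0.17 for PROM1 and -0.41 ± 0.15 for EGFLAM (SE), with edgeR adjusted p of 0.281, 0.271 and 0.273. For MAK it was 0.07 ± 0.28 and for IMPG2 -0.18 ± 0.17 (SE), so that MAK, which stood apart in both lines, averaged close to 0 over them.

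The lines themselves differed in most of these genes. In the mean of the arms, 16 of the 29 genes were higher in D425 than in HD-MB03 and 6 were lower. Of all genes tested, 46.0% were called, 24.4% higher and 21.6% lower. The median log2 fold change was 1.08, beside 0.05 over all genes. By CPM, 9 of the 29 were higher in every D425 library than in every HD-MB03 library and 5 were lower, against 15.3% and 13.8% of all genes (29.1% in either direction).

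By role, 7 of the 10 axonemal and ciliary genes were higher in D425 and 0 lower. TULP1 had 3692 counts over the 6 D425 libraries and 17 over the 4 HD-MB03 libraries. The ratio of these counts relative to scaled library size was 113, with a counting interval of 70.7 to 195. LCA5, MAK, RP1L1, RPGR, RPGRIP1 and RP1 were higher by 2.63, 1.81, 1.44, 1.40, 1.24 and 1.08 on the log2 scale, with edgeR adjusted p of 0.000216 to 0.0146. LCA5, MAK and RP1L1 rest on 4, 8 and 12 counts in the HD-MB03 controls. By CPM, LCA5, MAK, RP1L1 and RPGRIP1 overlapped between the lines, and RPGR and RP1 did not. CEP290, NPHP4 and BBS1, which serve cilia of most cell types, were not called between the lines, with log2 fold changes of -0.01 ± 0.28, -0.07 ± 0.19 and 0.67 ± 0.55 (SE). BBS1 rests on 3 counts in the HD-MB03 controls. These genes do not stand for general cilium genes. Of 14 BBSome and chaperonin genes 9 were higher in D425 and 0 lower, and of 53 further cilium genes 21 were higher and 9 lower.

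Disc and matrix genes were split. CDHR1 was higher in D425 by 3.67 ± 0.23 (SE, edgeR adjusted p = 6.7e-08) and PRPH2 by 2.45 ± 0.58 (edgeR adjusted p = 0.00483), while PROM1 was lower, at -1.88 ± 0.17 (edgeR adjusted p = 2.09e-06). CDHR1 and PROM1, which bind each other at the disc base, thus stood at opposite ends, CDHR1 with every D425 library above every HD-MB03 library and PROM1 with every one below. IMPG2 was lower in D425, at -1.16 ± 0.17 (edgeR adjusted p = 0.000111), and IMPG1 was on the opposite side. It had 984 counts over the D425 libraries and 10 over the HD-MB03 libraries. Relative to scaled library size the ratio was 51.3, with a counting interval of 27.8 to 107. ROM1 and EYS did not pass, at -0.35 ± 0.33 and -0.15 ± 0.23 (SE).

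Polarity genes also went both ways. PCDH15 had 338 counts over the D425 libraries and 1 over the HD-MB03 libraries. Relative to scaled library size the ratio was 176, with a counting interval of 31.4 to 6986. CRB2 was higher in D425 by 2.66 ± 0.30 and MPP4 by 2.06 ± 0.64, and CRB1 was lower, at -1.35 ± 0.41 (SE), with edgeR adjusted p of 1.85e-05, 0.0194 and 0.0157. CRB1 averaged 1.42 CPM in D425 shCRX libraries and 9.36 CPM in D425 controls, against 11.3 CPM in the HD-MB03 libraries labelled shCRX and 7.45 CPM in HD-MB03 controls, so that it was lower in D425 in the shCRX arm and not in the controls. At the synapse, EGFLAM was higher in D425 by 1.59 ± 0.16 and PCLO by 0.79 ± 0.30, and BSN and CACNA2D4 were lower, at -2.53 ± 0.50 and -2.20 ± 0.25 (SE), with edgeR adjusted p of 4.82e-06, 0.0499, 0.00130 and 1.49e-05. CACNA1F and CTBP2 were not called, at 0.08 ± 0.30 and 0.23 ± 0.13. PLEKHB1 was higher in D425 by 3.31 ± 0.16 (SE, edgeR adjusted p = 8.06e-09) and CERKL lower, at -2.27 ± 0.21 (edgeR adjusted p = 2.59e-06).

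Within the lower library numbers, where D425 shCRX is set against HD-MB03 controls, 15 of the 29 genes were called, against 30.7% of all genes. Within the higher numbers, D425 controls against HD-MB03 libraries labelled shCRX, 18 were, against 31.2% of all genes. In each set the called genes had the sign of the mean of the arms. In parentheses is the log2 fold change where the call was lost. CRB1 (-0.27) and LCA5 (1.497) were called within the lower numbers and not within the higher ones. PRPH2 (2.49), RPGRIP1 (1.098), RP1L1 (1.01), RP1 (0.76) and IMPG1 were called within the higher numbers and not within the lower ones, and MPP4 (2.24 and 1.89) and PCLO (0.85 and 0.72) in neither. Leaving out 1 library ended the call of RP1L1 (1.09 without the HD-MB03 vector library) and of RPGRIP1 (1.08 without HD-MB03 parental replicate 1). The same held for CRB1 (-1.15 without HD-MB03 shCRX replicate 1, -0.83 without the vector library of HD-MB03) and MPP4 (1.86 without HD-MB03 parental replicate 1, 1.90 without HD-MB03 shCRX replicate 2). PCLO, at the threshold, was lost without any 1 of 7 libraries, all but D425 parental replicate 2 and D425 shCRX replicates 2 and 3, at 0.56 to 0.89.

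**Figure D4:**
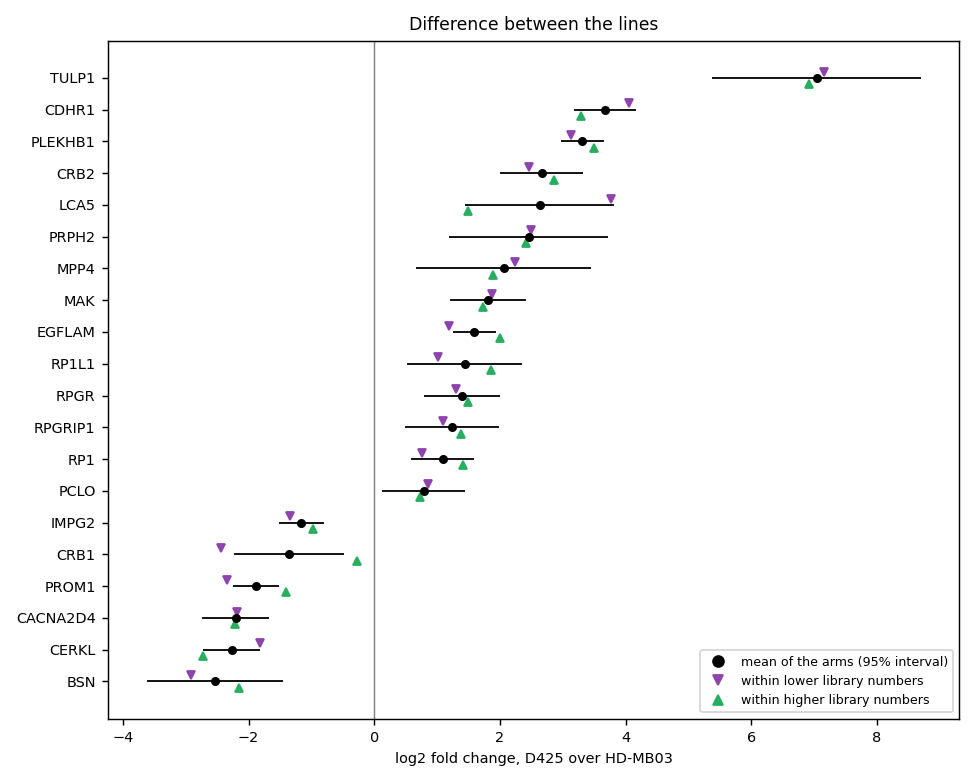
Log2 fold change, D425 over HD-MB03, of the structural genes called between the lines in the mean of the arms, IMPG1 and PCDH15 left out. Circles are the mean of the arms with its 95% interval, and triangles the values within the lower and the higher library numbers. TULP1 at 7.04 is farthest to the right and BSN at -2.53 farthest to the left, and the triangles lie on the same side of 0 as their circle for the called genes.

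Wider lists of the same structures gave few calls in the shCRX comparisons, and so did all genes tested. Of these, 2.97% were called in D425, 1.51% in HD-MB03 and 4.16% in the difference of the effects. Of 53 further genes of the connecting cilium, transition zone and ciliary transport, 0 were called in D425 and 0 in the HD-MB03 libraries labelled shCRX, with median log2 fold changes of 0.06 and 0.45, beside 0.02 and 0.10 over all genes. Of 14 BBSome and chaperonin genes and of 7 tested Usher network genes, 0 were called in either line. Of 18 tested Crumbs and apical polarity genes, PARD6G, an adaptor of the Par complex, rose by 1.15 in D425 (edgeR adjusted p = 0.0398). Of 19 tested genes of the ribbon synapse and its dendritic partners, DMD, whose retinal isoform belongs to the same dystroglycan complex as EGFLAM, fell by 1.13 in D425 (edgeR adjusted p = 0.0436). In HD-MB03 0 genes of both lists were called. The difference of the shCRX effects passed for PCARE, an actin regulator of disc initiation (-2.41), IFT57 and ARL6, which serve ciliary transport and BBSome recruitment (-1.14 and -1.73), and DMD (-2.13), all lower in D425 than in HD-MB03. It also passed for CFAP410 (2.11), UNC119, which carries lipidated cargo to the cilium (1.49), and PARD6G (1.90), all higher. UNC119 was on both the cilium and the synapse list. Between the lines the same lists gave more calls, beside 24.4% of all genes higher in D425 and 21.6% lower. Of the 53 cilium genes, 21 were higher in D425 and 9 lower, and of the 14 BBSome and chaperonin genes 9 and 0. It was 3 and 0 of the 7 Usher genes, 8 and 3 of the 18 polarity genes and 5 and 5 of the 19 synapse genes.

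The shCRX calls of these lists too were sensitive to single libraries. In D425, PARD6G was lost without any 1 of the 10 libraries, at 0.89 to 1.30, and DMD without any 1 except either HD-MB03 control, at -1.23 to -1.07. In the difference of the effects, all 7 calls were lost without the HD-MB03 vector library, at -2.41 to -1.12 for the 4 lower and 1.48 to 2.09 for the 3 higher genes. They were likewise lost without HD-MB03 shCRX replicate 1, at -2.15 to -1.10 and 1.40 to 2.03. Each of the other 8 libraries ended at least 1 of the 7 calls.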

How the data were processed

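Gene expression was measured by RNA sequencing in 10 libraries. The authors deposited 1 table of raw read counts per library. The submitters' processing notes name HTSeq, HISAT2, DESeq2 and bcl2fastq and the build GRCh37 (hg19); versions and strand setting are not given in the sources used here. Each file held 57820 gene identifiers and 5 summary entries left out of all totals; genes took 50.5% to 79.3% of all reads in a library's file. Symbols came from GENCODE, whose build GRCh38 differs from that of the counts, so exon lengths and shared exon bases describe that annotation.

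The counts were fitted with edgeR 4.0.16 under R 4.3.3, after TMM scaling and filterByExpr, by a robust quasi-likelihood model of 4 means (each arm of each line) and 6 residual degrees of freedom. Parental and vector libraries of a line together formed its control. In all 16006 genes were tested, two-sided, and called at a Benjamini-Hochberg adjusted p under 0.05 over all of them. The 5 contrasts were shCRX against control in D425, in HD-MB03, the difference and the mean of these, and D425 against HD-MB03 over both arms. CPM and the ratios with counting intervals use the TMM-scaled library size, and the floor of 3 counts uses the library total. Counting intervals and the floor cover counting error alone. A single gene in one line cannot reach an exact permutation p under 0.1 with 3 against 3 libraries or 0.333 with 2 against 2. The fit was tested on simulated counts.

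The genes and lists were chosen with earlier results of these data known. All 33 genes are named, and the 32 matched ones have values, per library for those called in any contrast. Genes outside them are from fixed lists, being those called and, among the markers, also some named for their CPM without a call. NEUROD1 is named as a neighbour that shares exon bases. Same-numbered D425 parental and shCRX libraries had only a number in common (correlation of their deviations 0.0137), so no block was used. No libraries were identical (0 pairs), and differences between libraries were beyond counting error, with a chi-square of at least 9.23 per degree of freedom. The alternatives were other scalings, filters, controls, DESeq2 1.42.0, limma-voom (limma 3.58.1), leaving out each library, a block, thinning, and removal of GC and length trends. The comparison of the lines within the lower and within the higher library numbers was chosen after seeing the data.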

Additional observations from a re-analysis of the deposited data

Results flagged for a closer look

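The shCRX effect differed between D425 and HD-MB03 for 8 of the 29 tested genes by edgeR's test of the difference itself. The difference, D425 minus HD-MB03 on the log2 scale, was -4.12 for RP1L1, -3.38 for CRB1, -3.15 for MAK, -2.34 for CERKL, -1.85 for EYS, -1.78 for CDHR1, -1.47 for IMPG2 and 1.34 for PLEKHB1. CRX itself differed by -2.14 (edgeR adjusted p = 0.0199). Among the fixed lists of related genes the difference was -2.41 for PCARE, -2.13 for DMD, -1.73 for ARL6, -1.14 for IFT57, 1.49 for UNC119, 1.90 for PARD6G and 2.11 for CFAP410. CRX was lower in every D425 shCRX library than in every D425 control and higher in both HD-MB03 libraries labelled shCRX than in both controls. Its difference had the sign of the genes with negative values, and not that of PLEKHB1, UNC119, PARD6G and CFAP410. Library numbers and depth changed with the arms too. The parts of CRX, library numbers and depth in these differences cannot be told apart.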

How the results depend on the processing

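Alternatives were computed for 57 results of single genes (those called, and EYS, CDHR1 and CERKL), 21 for each shCRX comparison and 23 for the lines. Of these results 0 changed direction, and the loss of calls named beside the genes is in the report. In D425 the count of genes called, 476, was 1211 without a filter, 990 by DESeq2, 21 with the vector library as the control, 129 with the parental ones, 57 after thinning and 185 to 430 leaving out 1 library. The 6 structural genes called were 3 under library totals, 0 with vector and 1 with parental libraries alone, 0 after thinning and 1 to 7 leaving out 1 library. In HD-MB03 the 241 genes called were 790 without a filter, 793 by DESeq2, 30 with vector and 118 with parental libraries alone, 44 after thinning, 136 after removal of GC and length trends and 15 to 329 leaving out 1 library. The 1 structural gene was 4 without a filter, 3 by DESeq2 (2 higher, and PLEKHB1 lower) and 0 by limma-voom, with vector or parental libraries alone, after thinning and after removal of GC and length trends, and 0 to 2 leaving out 1 library.

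For the difference between the lines, the 666 genes were 1579 without a filter, 1358 by DESeq2, 55 with vector and 279 with parental libraries alone, 109 after thinning, 332 after removal of GC and length trends and 177 to 841 leaving out 1 library. The 8 structural genes were 0 with vector and 2 with parental libraries alone, 1 after thinning, 4 after removal of the trends and 1 to 8 leaving out 1 library. In the mean of the lines the 36 genes were 18 under library totals, 405 without a filter, 369 by DESeq2, 18 by limma-voom, 1 with vector and 2 with parental libraries alone, 15 after thinning and 3 to 71 leaving out 1 library, while the count of structural genes was 0 under all alternatives. Between the lines the 7365 genes were 3754 after thinning, and the 22 structural genes were 17 after thinning, 18 by limma-voom and 19 to 22 leaving out 1 library.

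With the replicate number as a block the structural genes called were 7 in D425, 2 in HD-MB03, 9 in the difference, 0 in the mean of the lines and 22 between the lines, and the genes called 586, 280, 827, 57 and 7541. With this block EYS in D425, CDHR1 in HD-MB03 and RPGRIP1 in the difference were called in addition, and it changed no other call of the structural genes. Scaling by library totals moved the median gene in D425 to 0.15, beside 0.02. The cause of these changes was not tested, except that thinning and omissions leave fewer reads or libraries. In the shallowest library 3 counts were 1.53 CPM, so low genes such as PRPH2 and LCA5 could not be compared well there.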

Other observations

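The libraries of an arm did not rank alike over these genes. Among the D425 controls, parental replicate 2 was the lowest for 16 of the 29 tested genes, parental replicate 1 for 7 and the vector library for 6. Among the D425 shCRX libraries, replicate 1 was the lowest for 13, replicate 2 for 12 and replicate 3 for 4. TULP1 spread widely in this arm, with 8.89 CPM in shCRX replicate 2 and 43.1 and 67.3 CPM in shCRX replicates 1 and 3. CACNA1F, the pore of the photoreceptor calcium channel, spread widely among the D425 controls, with 39.0 and 149 CPM in parental replicates 1 and 2 and 82.6 CPM in the vector library.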
